A study of Mus musculus with 54 samples.

Results

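A set of 10 genes that mark fat cells was followed in bulk RNA sequencing of mouse testis and ovary: Adipoq, Lep, Retn, Cfd, Plin1, Cidec, Fabp4, Lpl, Car3 and Ucp1. They were taken by gene symbol, as a measure of fat tissue left attached to the gonad, and all 10 were found among the 26264 genes of the count tables. The rule used symbols and no expression value, although it was written with earlier results of these data known. Levels are given in CPM, a gene's counts relative to the total of its library, after scaling libraries by the trimmed mean of M values (TMM).

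The study asked what a cocktail of pharmaceuticals in drinking water does to the gonads of exposed mice and of their offspring. There were 54 libraries in 18 groups of 3, with 27 libraries of testis at 35 days after birth and 27 of ovary at 30 days after birth. Libraries of a group carry the letters A, B and C. The labels name no strain and do not say whether the libraries of a group came from separate animals or litters, so p-values measure the spread between these samples.

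In the F1 generation, mothers and their progeny drank the water from 8.5 days after conception until the progeny were killed. The control water held 0.001% ethanol. The water of dose 1 and dose 2 carried the painkiller ibuprofen at 11.3 and 113 ng/L and its hydroxylated form 2hIBU at 90 and 225 ng/L. Diclofenac, another anti-inflammatory drug, was present at 22.5 and 112 ng/L, and the synthetic oestrogen ethinyl-estradiol at 2.25 and 45 ng/L. The F2 groups are named by their parents. In the control cross both parents were controls, in a maternal cross the mother came from the dose 1 or the dose 2 group and the father from the controls, in a paternal cross the father was the exposed parent, and in the biparental cross both came from the dose 2 group. The labels list no treatment for the F2 animals themselves.

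White adipocytes store triglyceride in a single large droplet and secrete hormones into the blood. A pad of white fat lies against the epididymis and testis in the male mouse and around the ovary and uterine horn in the female, and it is usually trimmed away when a gonad is collected. Several fat cell genes are also active in other cells: steroid-producing cells of the ovary coat their lipid droplets with perilipins, and capillary beds of many tissues carry lipoprotein lipase made by the cells around them. In bulk RNA, fewer fat cells and less RNA per fat cell cannot be told apart.

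Fat cell genes are driven by C/EBP and PPAR gamma transcription factors, so the promoters of members that did and did not follow each other across the ovary libraries are shown here. RefSeq promoter windows of the mouse build GRCm38.p6 were matched by symbol for 7 of the 10 genes (Adipoq, Lep, Retn, Cfd, Plin1, Cidec and Ucp1). Each window holds 250 bases before and 50 bases after a start site, and Cidec has a second window that is not printed. Capitals mark a match, on either strand, to the C/EBP core TTNCNNAA, the CCAAT box CCAAT, the TATA box TATAAA or the nuclear receptor core AGGTCA.
Adipoq: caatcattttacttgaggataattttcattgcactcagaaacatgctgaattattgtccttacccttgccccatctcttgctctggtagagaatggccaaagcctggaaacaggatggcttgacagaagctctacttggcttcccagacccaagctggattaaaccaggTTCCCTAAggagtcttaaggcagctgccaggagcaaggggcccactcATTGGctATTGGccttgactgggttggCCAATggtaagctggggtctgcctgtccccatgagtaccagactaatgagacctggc
Lep: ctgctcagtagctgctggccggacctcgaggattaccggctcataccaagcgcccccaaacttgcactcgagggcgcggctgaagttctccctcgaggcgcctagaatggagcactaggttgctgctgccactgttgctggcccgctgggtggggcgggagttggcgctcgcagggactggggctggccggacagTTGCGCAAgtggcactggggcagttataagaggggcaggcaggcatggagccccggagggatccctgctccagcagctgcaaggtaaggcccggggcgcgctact
Cidec: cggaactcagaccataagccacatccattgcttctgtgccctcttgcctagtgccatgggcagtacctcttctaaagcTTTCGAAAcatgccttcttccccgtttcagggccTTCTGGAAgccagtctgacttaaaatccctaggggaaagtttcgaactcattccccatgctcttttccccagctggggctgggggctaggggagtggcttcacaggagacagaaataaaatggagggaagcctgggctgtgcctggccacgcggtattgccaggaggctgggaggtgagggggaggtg
Plin1: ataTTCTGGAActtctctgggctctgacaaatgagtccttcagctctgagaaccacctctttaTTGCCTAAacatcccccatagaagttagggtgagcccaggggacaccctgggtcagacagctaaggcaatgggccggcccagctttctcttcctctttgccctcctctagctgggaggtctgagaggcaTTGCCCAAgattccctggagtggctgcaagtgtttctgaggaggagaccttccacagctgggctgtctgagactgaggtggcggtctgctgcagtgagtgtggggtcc
The Adipoq window is chr16:23146286-23146585 on the plus strand and the Lep window is chr6:29059971-29060270 on the plus strand. Both other windows lie on the minus strand, that of Cidec at chr6:113435711-113436010 and that of Plin1 at chr7:79732727-79733026. Position is counted in bases from the start site, with negative numbers before it. Adipoq held a C/EBP core at -81 and CCAAT boxes at -34, -27 and -7. Lep held the palindromic core TTGCGCAA at -55, which matches on both strands. Cidec held cores at -172 and -138, and Plin1 held cores at -247, -187 and -58. A C/EBP core was present in 40.7% of all 32851 windows of the same length, a CCAAT box in 37.4%, a TATA box in 13.6% and the nuclear receptor core in 16.3%. A match describes the sequence and is not a binding site. The second window of Cidec held 1 further core, TTGCTCAA at -198. The Ucp1 window held 1 nuclear receptor core at -14, and no searched motif was found in the windows of Cfd and Retn.

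Total counts per library were 31.6 M to 122.4 M. Markers of other cell types were summed per library to find libraries that stand apart. F1 ovary control A held 865 CPM of 8 testis markers, among them 234 CPM of the sperm chromatin gene Prm1 and 403 CPM of Prm2, while the other ovary libraries held 14.5 to 86.6 CPM of the sum. F2 ovary biparental dose 2 C held 911 CPM of 8 macrophage genes against at most 421 CPM elsewhere in the ovary. F1 testis dose 2 C held 361 CPM of the same genes against at most 192 CPM in the other testis libraries, and with F1 testis dose 1 B it had the highest sums of the testis markers, at 18239 and 17315 CPM. F1 testis dose 2 B had the lowest sum of the testis markers among the testis libraries, at 5278.7 CPM. F2 testis maternal dose 2 A held 23.7 CPM of 9 epididymis genes against at most 10.9 CPM elsewhere. F1 ovary control C held 23.2 CPM of 5 mesothelium genes, against 60.5 CPM or more in the other ovary libraries. The haemoglobin genes Hba-a1, Hba-a2, Hbb-bs and Hbb-bt were at 0 in all 54 libraries. Why was not tested, so these zeros are not a measure of blood. Alas2, the only gene of the blood list that was detected, was at 4.13 to 12.3 CPM in ovary and 11.3 to 27.6 CPM in testis. The part of these libraries in each result was not tested beyond the values given without them.

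Across 20 comparisons and the members that could be tested, edgeR's quasi-likelihood test with Benjamini-Hochberg adjustment over all genes called 0 of 177 tests at an adjusted p of 0.05. The adjusted p ranged from 0.353 to 1.0. At an unadjusted p under 0.05 there were 41, of which 25 of 63 were in F2 ovary, 12 of 27 in F1 testis, 4 of 24 in F1 ovary and 0 of 63 in F2 testis. The share of all genes per comparison was 2.38% to 13.1% in F2 ovary and 1.93% to 3.31% in F1 testis. It was 3.75% to 8.33% in F1 ovary and 5.02% to 16% in F2 testis. Comparisons share groups and several members vary together, so these tests are not independent. DESeq2 called 3 of the 177, which are named below. Ucp1 was under the count minimum in every fit and Lep in F1 ovary.

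In the ovary, Adipoq, Lep, Retn, Cfd, Cidec, Fabp4 and Car3 were high in the same libraries and low in the same libraries, and their levels differed more between libraries of one group than between most groups. Adipoq, which encodes the hormone adiponectin, ranged from 0.0657 to 8.96 CPM over the 27 libraries. Car3, a carbonic anhydrase abundant in adipocytes and muscle, ranged from 0.263 CPM in F1 dose 1 A to 53.1 CPM in F2 paternal dose 1 A, a 202-fold span. Plin1 and Lpl varied far less. Plin1, the perilipin that coats the fat cell droplet, stayed between 25.4 and 60.1 CPM, and Lpl, which frees fatty acids from circulating lipoproteins, between 83.9 and 201 CPM.

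**Figure D1:**
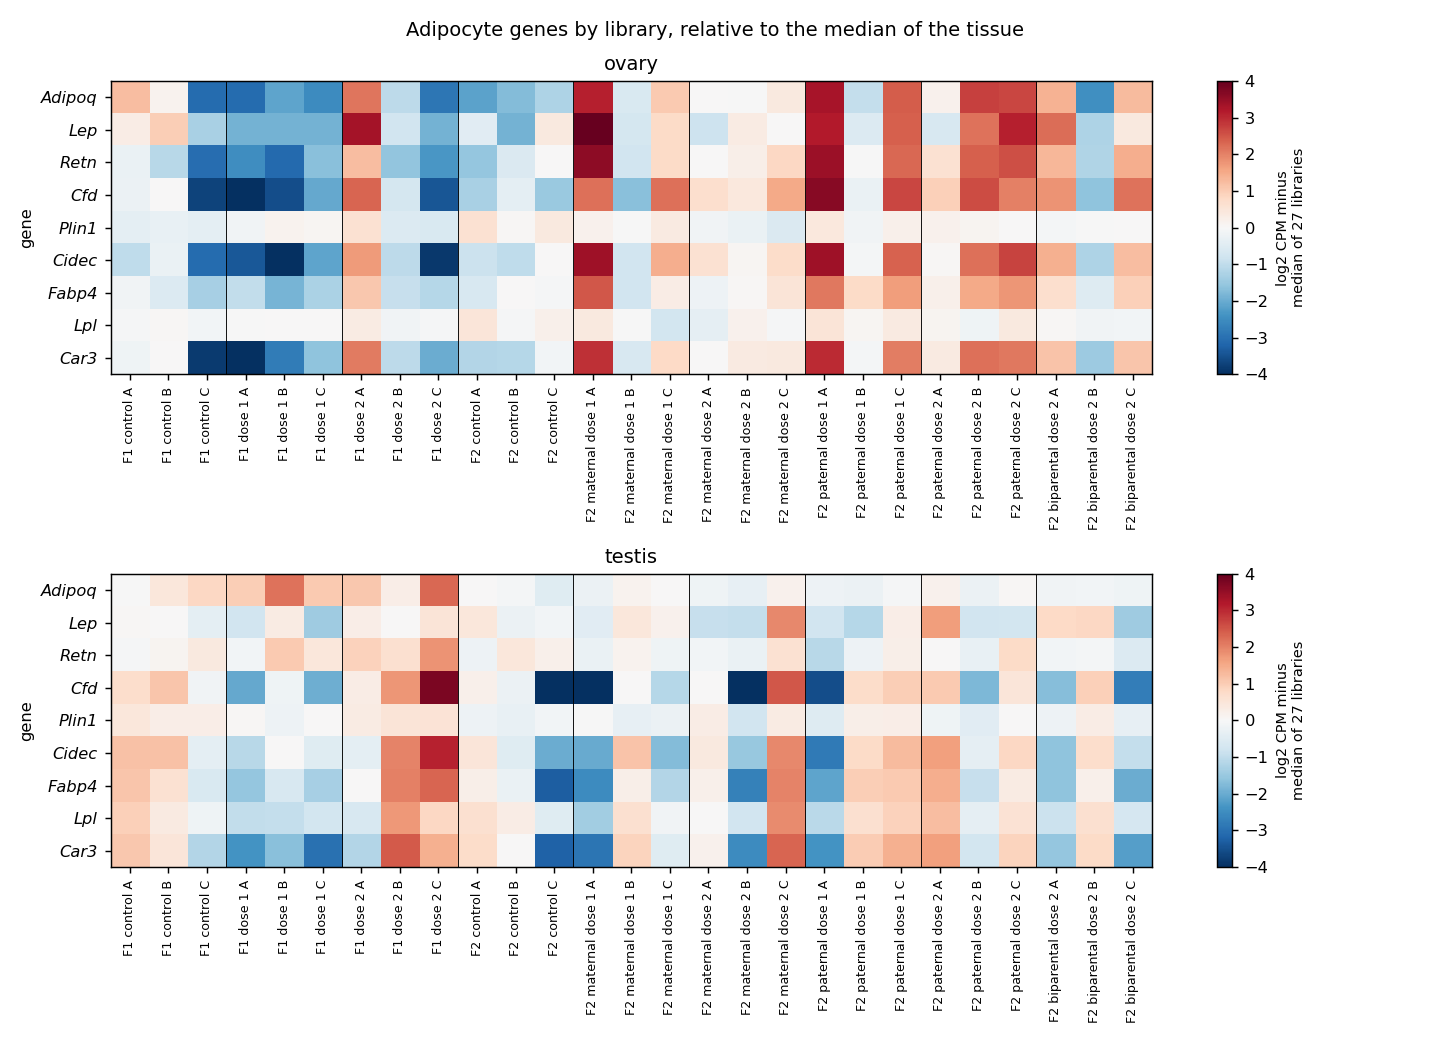
Each cell is the log2 CPM of 1 gene (rows) in 1 library (columns, 3 per group) minus the gene's median over the 27 libraries of the tissue, with a prior count of 2 and colours limited to 4 on either side. In the ovary 7 of the rows darken together, with F2 maternal dose 1 A and F2 paternal dose 1 A the reddest columns, while Plin1 and Lpl stay pale. In the testis, the highest Adipoq values are in F1 columns.

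The likeness between members was measured over libraries, with 34 relations to Adipoq or Car3 computed in all. In the ovary, Pearson's r of log2 CPM with Adipoq was 0.94 for Car3, 0.94 for Retn, 0.92 for Cfd, 0.92 for Cidec, 0.91 for Lep and 0.89 for Fabp4. Each had a permutation p of 1e-05, the smallest the permutations can give, and an adjusted p of 2.27e-05. Spearman's rho was 0.89 to 0.96, with the same permutation p. Without the 2 libraries farthest from the median of Adipoq, r was 0.87 to 0.93, and it was 0.87 to 0.92 within F1 and 0.90 to 0.98 within F2. The libraries of a group share their condition, and centring each group at its mean left r at 0.86 to 0.94.

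Plin1 had an r of 0.30 with Adipoq over the 27 ovary libraries (rho 0.34, permutation p = 0.125 and 0.087, adjusted p = 0.17 and 0.11). The r of Lpl with Adipoq was 0.28 (rho 0.28, permutation p = 0.161 and 0.151, adjusted p = 0.202 and 0.183). Without the 2 farthest libraries these were 0.21 for Plin1 and 0.09 for Lpl. With each group centred at its mean they were 0.51 and 0.39, within F1 0.37 and 0.61, and within F2 0.05 and 0.20. Both genes stayed at 25.4 CPM or more in every ovary library, including the 5 in which Lep was at 0.

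Among the 14871 ovary genes with a mean of at least 1 CPM, the 8 with the highest r with Adipoq, the 10 members left aside, were Cyp2e1 (0.90), Thrsp (0.88), Scd1 (0.75), Dgat2 (0.74), Hp (0.73), Ces1d (0.65), Gpd1 (0.64) and Agpat2 (0.64). Scd1 desaturates fatty acids, Dgat2 and Agpat2 act in triglyceride synthesis, and Thrsp is a lipogenic gene responsive to thyroid hormone. Cyp2e1, Hp and Ces1d are on none of the fat cell lists, which are short and do not decide whether fat cells express a gene. Hp, which encodes haptoglobin, was highest at 25.1 CPM in F2 biparental dose 2 C, the library with the high macrophage sum, and Dgat2 was highest at 26.9 CPM in F1 control A, the library with testis transcripts. An r over 0.7 was reached by 5 of the 14871 genes, which is 0.0336%. Among listed white adipocyte genes that were under that mean level, Adrb3, the beta-3 adrenergic receptor, had an r of 0.85, Pck1 one of 0.81 and Trarg1 one of 0.77. Other white adipocyte genes stood apart from Adipoq in the ovary: r was 0.27 for Pparg, 0.35 for Cebpa, 0.34 for Plin4 and -0.14 for Cd36.

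**Figure D2:**
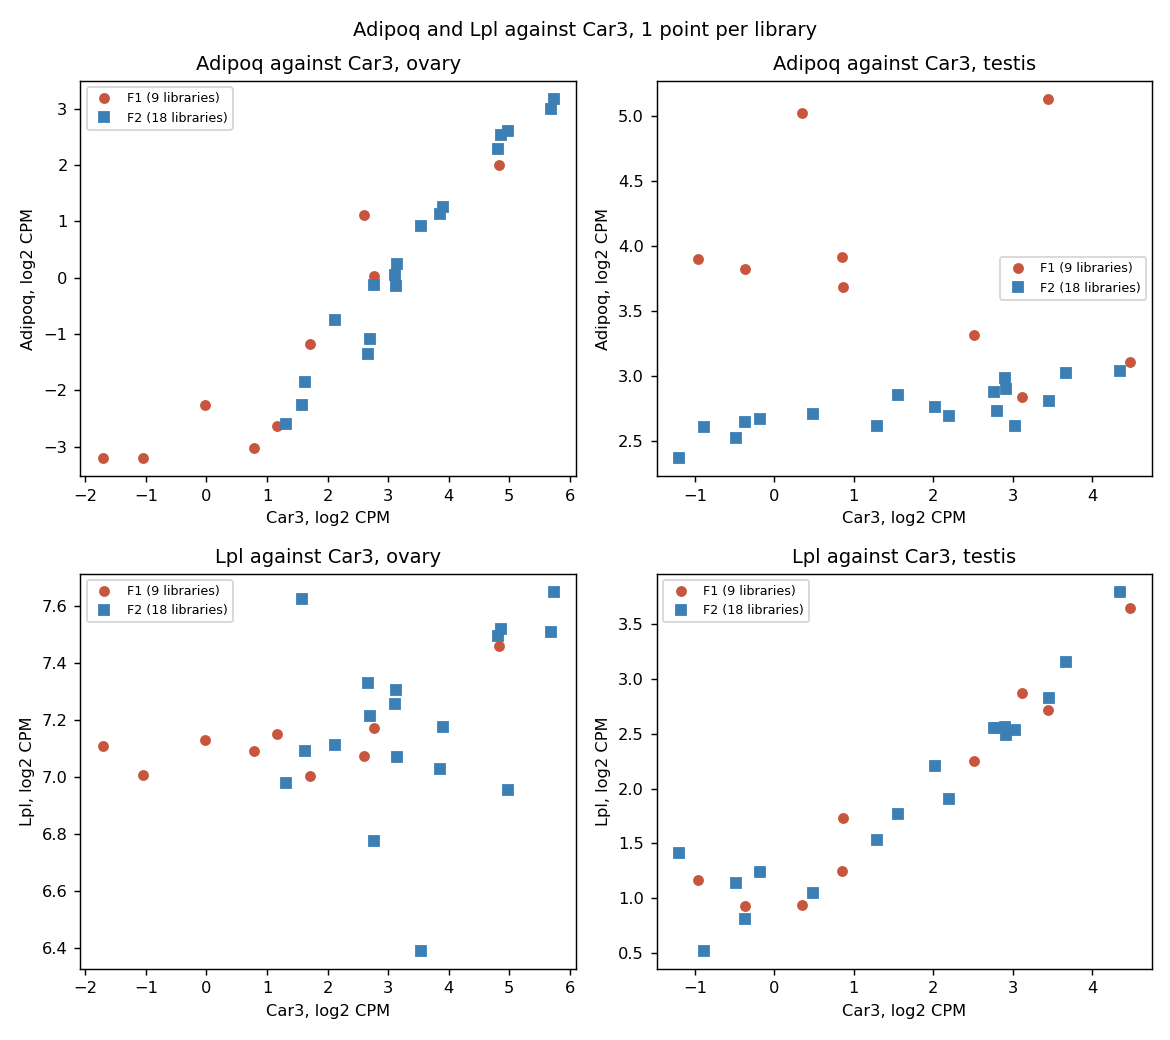
Each point is 1 library, with log2 CPM of Car3 on the horizontal axis and log2 CPM of Adipoq (top) or Lpl (bottom) on the vertical axis, in ovary (left) and testis (right), F1 as circles and F2 as squares. Adipoq lies along Car3 in the ovary (r 0.94) and not over all 27 testis libraries (r 0.01, but 0.80 within F2), whereas Lpl lies along Car3 in the testis (r 0.95) and not in the ovary (r 0.34).

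The F1 ovary comparisons asked whether direct exposure altered the ovary. Adipoq was at 2.11, 0.973 and 0.0659 CPM in control A, B and C, at 0.0657, 0.167 and 0.118 CPM in dose 1, and at 3.95, 0.400 and 0.0808 CPM in dose 2. Car3 was at 6.04, 6.77 and 0.439 CPM in the controls, at 0.263, 0.940 and 2.21 CPM in dose 1, and at 28.4, 3.23 and 1.68 CPM in dose 2. Control C, the library with the low mesothelium sum, was as low as the dose 1 libraries for both genes. Library dose 2 A was higher than all 8 other F1 ovary libraries for both. Fold changes without control C are not given here.

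F1 ovary dose 2 A had the highest level in its group for 9 of 9 members with counts, Plin1 and Lpl included: Plin1 was at 59.2 CPM there against 26.8 and 25.4 CPM in dose 2 B and C. Within the dose 2 group the highest library exceeded the lowest 17.0-fold for Car3, 48.9-fold for Adipoq and 71.0-fold for Cfd, which encodes adipsin, the complement protease secreted by fat cells. Lep, the gene of the satiety hormone leptin, was at 0 in all 3 dose 1 libraries and at 67, 2 and 0 counts in dose 2.

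Against control, dose 1 had a log2 fold change of -3.17 ± 1.49 (SE) for Adipoq and -1.97 ± 1.29 for Car3, and edgeR called 0 of 8 members, beside 0% of all genes, with 0 members at an unadjusted p under 0.05 against 8.33% of genes. The dose 1 and control libraries overlapped for all members but Plin1, which was higher in all 3 dose 1 libraries, 1 of 8 members against 10.5% of all genes. Plin1 was at 29.6, 31.6 and 30.0 CPM in the controls and at 35.5, 43.3 and 41.0 CPM in dose 1, with an edgeR adjusted p of 0.713. In the same comparison 4 of 9 endothelial and 4 of 8 macrophage genes had an unadjusted p under 0.05, with list medians of 0.22 and 0.20 on the log2 scale, and their part in the result was not tested. Without control A, the library with testis transcripts, the dose 1 values were -2.14 for Adipoq and -1.65 for Car3. Lpl differed by 0.03 ± 0.12 on the log2 scale.

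Dose 2 against control gave 1.33 ± 1.25 for Car3 and 0.48 ± 1.31 for Adipoq, with all 8 tested members above 0 and a median of 0.88 beside -0.02 over all genes. Without control A, the library with testis transcripts, Car3 was at 1.63 and Adipoq at 1.50. No member separated the groups (0 of 8, against 7.19% of genes), edgeR called 0 of 8 (0% of genes), and 0 were under an unadjusted p of 0.05 (3.75% of genes). Library dose 2 A set these signs: without it Car3 was at -0.86, Adipoq at -2.15, Cfd at -0.93, Cidec at -0.95, Retn at -0.99 and Fabp4 at -0.46. Dose 2 against dose 1 gave 3.30 ± 1.35 for Car3 and 3.65 ± 1.51 for Adipoq, and without dose 2 A these were 1.12 and 1.02. In that contrast 4 of 8 members had an unadjusted p under 0.05, against 6.02% of genes, edgeR called 0 (0% of genes), and 0 of 8 separated the groups (14.1% of genes). In these 3 F1 ovary contrasts DESeq2 called 0 members, beside 0.145%, 0.0447% and 0.319% of genes for dose 1 against control, dose 2 against control and dose 2 against dose 1.

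**Figure D3:**
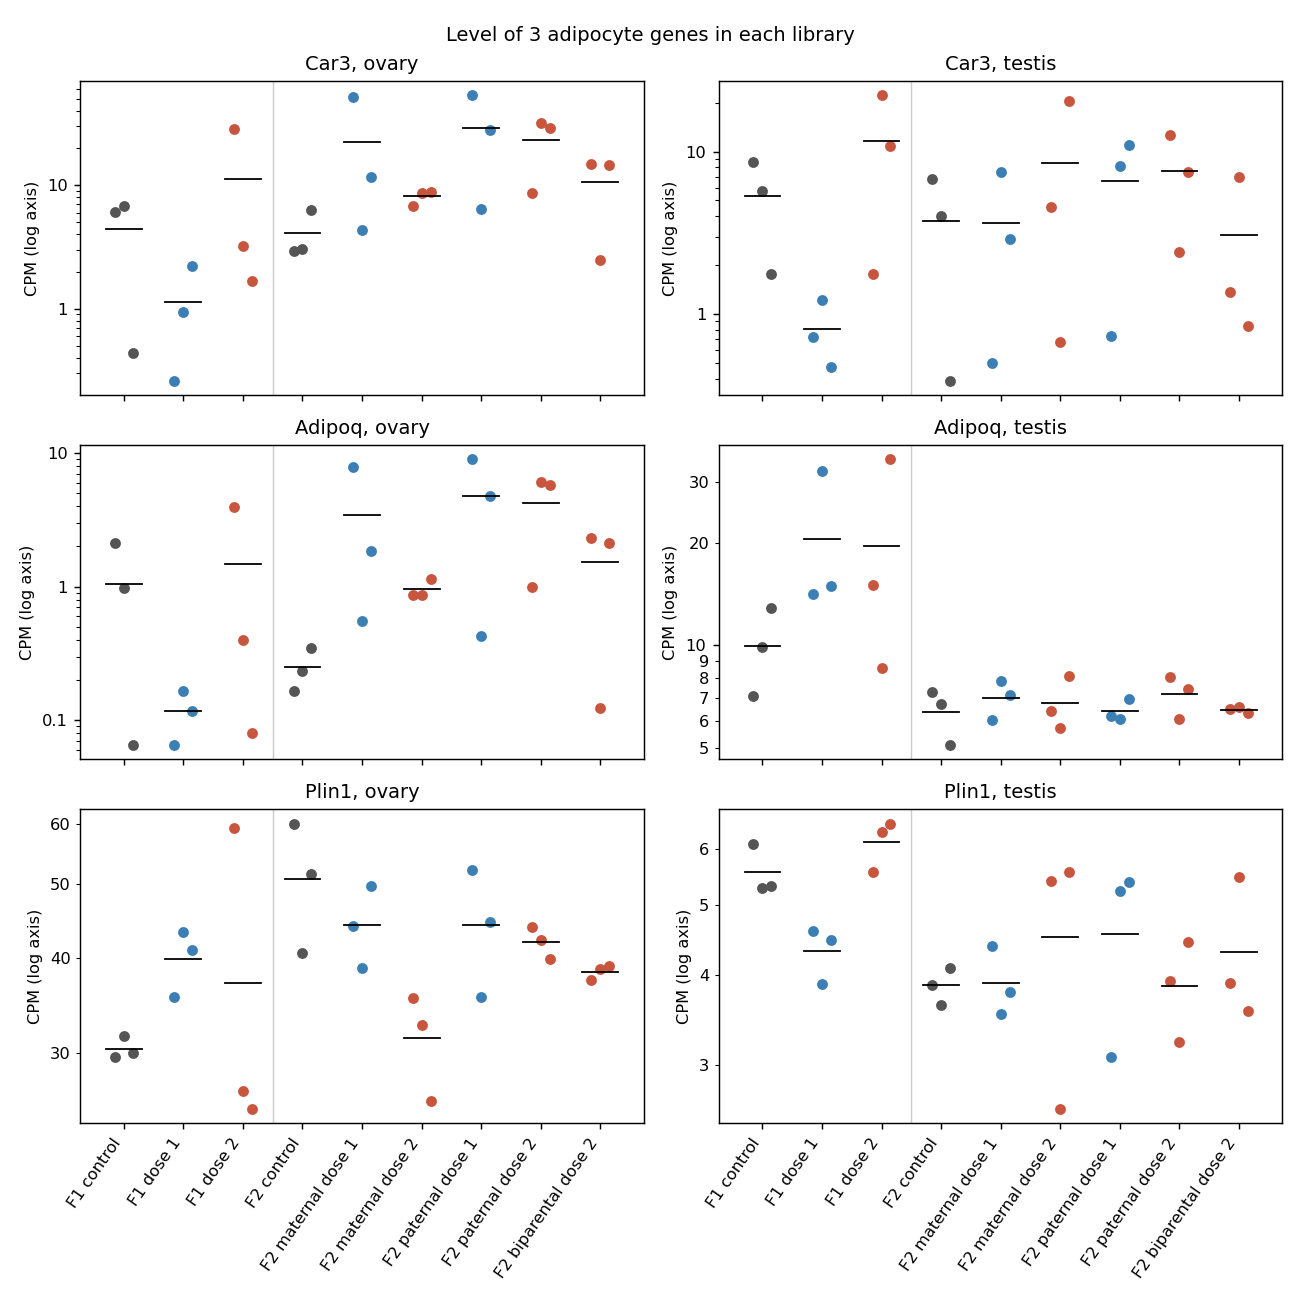
CPM on a log axis of Car3, Adipoq and Plin1 in ovary (left) and testis (right), with 1 point per library, A to C from left to right in each group, and a bar at the group mean; grey is control, blue dose 1, red dose 2, and the vertical line parts F1 from F2. Car3 spans 0.263 to 53.1 CPM in ovary, where Plin1 spans 25.4 to 60.1 CPM, and F1 testis holds the highest Adipoq values, 35.0 and 32.5 CPM.

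In F2 ovary, the control cross had the lowest mean of the 6 groups for Adipoq, Cfd, Fabp4, Car3, Cidec, Retn and Lep. Adipoq was at 0.166, 0.234 and 0.347 CPM in control cross A, B and C, at 7.91, 0.553 and 1.84 CPM in maternal dose 1, and at 0.870, 0.865 and 1.14 CPM in maternal dose 2. It was at 8.96, 0.428 and 4.81 CPM in paternal dose 1, at 0.992, 6.02 and 5.76 CPM in paternal dose 2, and at 2.33, 0.123 and 2.13 CPM in biparental dose 2. Of the 15 libraries with an exposed parent or parents, biparental B was the one not above all 3 control crosses, and it lay below them.

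Car3 was at 2.95, 3.06 and 6.30 CPM in the F2 control cross, at 51.2, 4.31 and 11.6 CPM in maternal dose 1 and at 6.75, 8.67 and 8.85 CPM in maternal dose 2. Its levels were 53.1, 6.44 and 27.9 CPM in paternal dose 1, 8.63, 31.5 and 29.1 CPM in paternal dose 2, and 14.9, 2.46 and 14.5 CPM in biparental dose 2. The lowest library was B in maternal dose 1, paternal dose 1 and biparental dose 2, and A in paternal dose 2. Maternal dose 2 was the even group, with a highest to lowest ratio of 1.31 for Car3, the smallest of the 9 ovary groups, and of 1.324 for Adipoq, the smallest of the 7 groups with over 3 counts in each library.

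All 5 crosses were compared with the same 3 control cross libraries, so the comparisons are not independent and are given side by side. The log2 fold change of Adipoq was 3.74 ± 1.14 in maternal dose 1, 1.91 ± 1.14 in maternal dose 2, 4.21 ± 1.16 in paternal dose 1, 4.05 ± 1.15 in paternal dose 2 and 2.58 ± 1.133 in biparental dose 2. For Car3 it was 2.44 ± 0.87, 0.97 ± 0.84, 2.83 ± 0.88, 2.49 ± 0.87 and 1.37 ± 0.85 in the same order. None passed: the edgeR adjusted p of Adipoq was 0.353, 0.943, 0.536, 0.961 and 0.546, and the whole tables held 0 or 1 called genes. Adipoq in all 3 libraries exceeded every control cross library in 4 of the 5 crosses, all but biparental dose 2. The share of all genes that separated the groups, in either direction, was 9.33%, 12.7%, 13.4%, 10.9% and 15.6% in the same order.

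Maternal dose 1 had 7 of 9 members with an unadjusted p under 0.05, all higher, against 13.1% of all genes, and 1 of 9 separated the groups against 9.33%, while edgeR called 0% of genes. The 7 were Adipoq, Lep (3.67 ± 1.42), Retn (2.89 ± 1.03), Cidec (2.81 ± 0.99), Cfd (2.70 ± 1.01), Car3 and Fabp4 (1.52 ± 0.64). Library A carried much of this: without it the values were 2.23 for Adipoq, 0.94 for Car3, 0.81 for Retn, 0.74 for Lep, 1.33 for Cidec, 2.33 for Cfd and 0.06 for Fabp4.

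Paternal dose 1 also had 7 of 9 members with an unadjusted p under 0.05, all higher, against 4.97% of genes. Cfd, at 24.8, 1.60 and 12.7 CPM against 0.774, 1.48 and 0.671 CPM in the control cross, had a log2 fold change of 3.76 ± 1.05. Fabp4, the fatty acid carrier of adipocyte cytosol, was at 24.4, 9.69 and 18.1 CPM against 3.61, 5.68 and 5.48 CPM, a log2 fold change of 1.83 ± 0.65. Adipoq, Fabp4, Cfd and Car3 were higher in all 3 libraries, 4 of 9 members against 13.4% of genes. By edgeR 0 of 9 passed, beside 0.00575% of genes, and leaving out each library in turn kept Adipoq between 3.35 and 4.74 and Car3 between 2.06 and 3.30. Oviduct markers (Ovgp1, Pax8, Sox17, Foxj1 and Sntn) were higher for 4 of 5 genes in the same comparison: 4 of 5 had an unadjusted p under 0.05, with a list median of 1.87 on the log2 scale, and edgeR called 0. Their summed level was 38.4, 20.8 and 30.5 CPM in paternal dose 1 A, B and C against 21.3 to 22.8 CPM in the control cross. The highest sums of the 27 ovary libraries were in paternal dose 1 A and, at 31.9 CPM, maternal dose 1 A, which also held the most Car3. Paternal dose 2 A and biparental dose 2 A were at 31.9 CPM as well, and F1 dose 2 B was at 31.5 CPM. Of these, paternal dose 2 A had the lowest Car3 of its group, and F1 dose 2 B held far less Car3 than F1 dose 2 A. The part of oviduct RNA in these results was not tested.

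Paternal dose 2 had the most members apart from the control cross, with Adipoq, Fabp4, Cfd, Cidec, Car3 and Retn higher in all 3 libraries, 6 of 9 against 10.9% of genes. All 6 had an unadjusted p under 0.05, against 3.82% of genes, and edgeR called 0 of 9 (0% of genes). Retn, which encodes resistin, was at 1.05, 3.73 and 4.32 CPM against 0.203, 0.448 and 0.683 CPM, a log2 fold change of 2.74 ± 1.03. Cidec, a protein that enlarges lipid droplets by fusion, was at 0.913, 4.16 and 5.92 CPM against 0.461, 0.409 and 0.874 CPM, a log2 fold change of 2.63 ± 0.98.

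Plin1 went the other way in the F2 ovary. It was at 60.1, 40.7 and 51.6 CPM in the control cross and at 35.5, 32.7 and 26.0 CPM in maternal dose 2, with every maternal dose 2 library below every control. The log2 fold change was -0.69 ± 0.16, with an edgeR adjusted p of 0.535 and a DESeq2 adjusted p of 0.049, and DESeq2 called 0.138% of genes there. In the same comparison Adipoq, Cfd, Cidec and Car3 were higher in all 3 libraries, so 5 of 9 members separated the groups against 12.7% of genes. One member, Plin1, had an unadjusted p under 0.05 (6% of genes), and edgeR called 0 of 9 (0% of genes). Macrophage genes were lower beside Plin1, with 3 of 8 at an unadjusted p under 0.05, a list median of -0.59 and sums of 222 to 271 CPM against 316 to 421 CPM in the control cross, and their part was not tested.

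Biparental dose 2 had 3 of 9 members with an unadjusted p under 0.05, against 9% of genes: Adipoq and Cfd (2.51 ± 1.01) were higher and Plin1 (-0.40 ± 0.16) lower. Plin1 alone separated the groups, 1 of 9 against 15.6% of genes, and edgeR called 0 of 9 (0% of genes). Without library C, which held the high macrophage sum, Adipoq was at 2.26 and Car3 at 1.08. Of the 5 oviduct markers, 4 had an unadjusted p under 0.05 here too, with a list median of 1.40, and their sum was 31.9, 23.7 and 29.7 CPM in biparental A, B and C. Adipoq and Car3 were likewise lowest in B. The part of oviduct RNA was not tested.

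Between maternal and paternal crosses of one dose, edgeR called 0 of 9 members at dose 1 (0.00575% of genes) and 0 of 9 at dose 2 (0% of genes). At dose 1 the groups overlapped for every member (0 of 9, against 14.5% of genes), with Car3 at -0.38 ± 0.81, maternal minus paternal, and 0 members under an unadjusted p of 0.05 (12.6% of genes). At dose 2 all 9 values were below 0, with a median of -1.51 beside -0.00 over all genes. Plin1 was lower in all 3 maternal libraries at -0.42 ± 0.16, 1 of 9 members against 11% of genes, and was the only member under an unadjusted p of 0.05 (2.38% of genes). Lpl ranged from -0.40 to 0.11 over the 7 F2 ovary comparisons and was did not separate the groups in any of them. DESeq2 called Plin1 in maternal dose 2 and 0 members in the other 6 F2 ovary contrasts. It called 0.259%, 0.121%, 0.0402% and 0.132% of genes in maternal dose 1, paternal dose 1, paternal dose 2 and biparental dose 2 against the control cross, and 0.282% and 0.0115% between maternal and paternal crosses of dose 1 and dose 2.

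**Figure D4:**
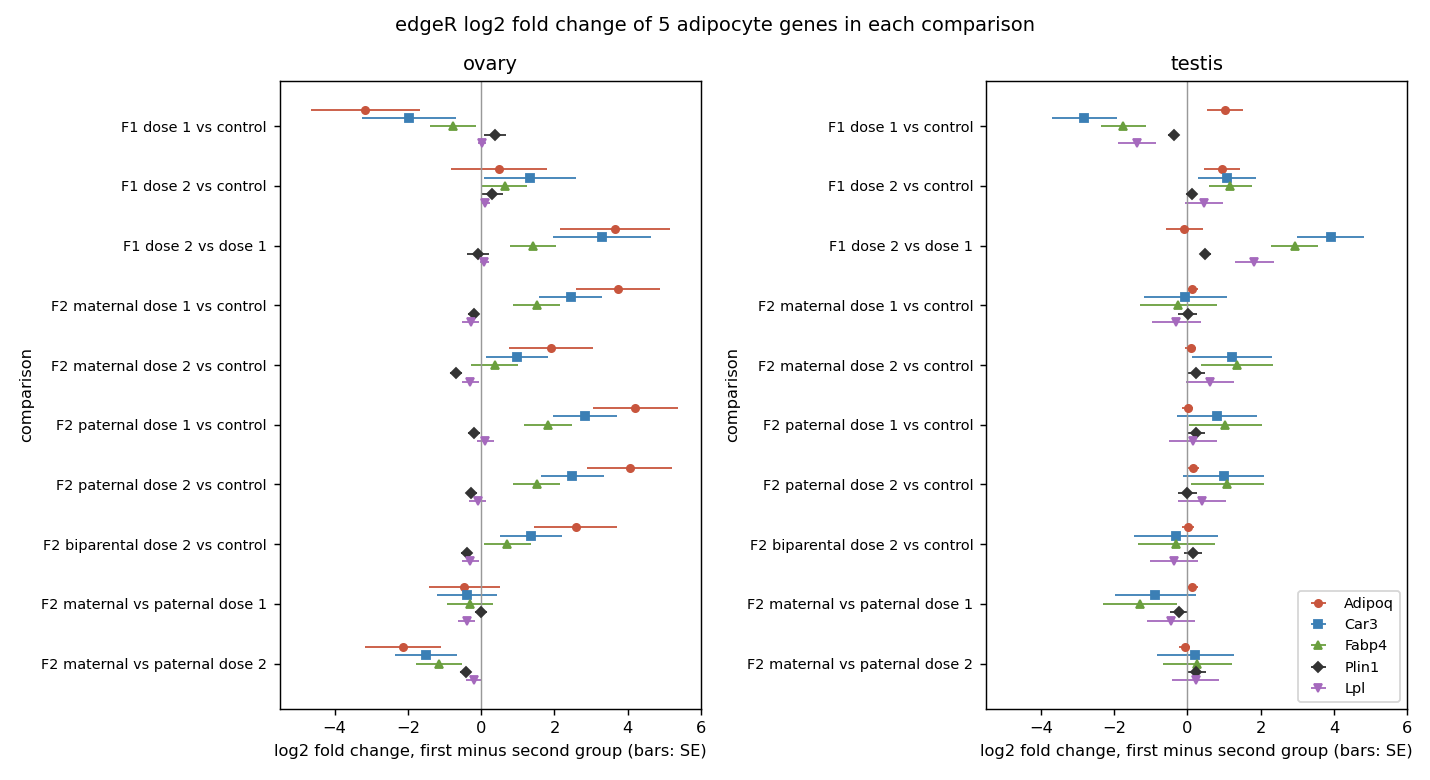
Log2 fold change (first minus second group) with its SE from edgeR for Adipoq, Car3, Fabp4, Plin1 and Lpl in the 10 comparisons of each tissue. Adipoq and Car3 lie to the right in all 5 F2 ovary crosses against the shared control cross, at 1.91 to 4.21 and 0.97 to 2.83, while Plin1 lies to the left at -0.69 to -0.19 and Lpl between -0.29 and 0.11. None of these values passed edgeR's adjusted test.

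In the testis, Car3, Fabp4, Cfd, Cidec and Lpl were high and low in the same libraries, and Adipoq followed them within F2 but not over all 27 libraries. Over the 27 testis libraries, the r with Car3 was 0.95 for Lpl, 0.94 for Fabp4, 0.88 for Cfd and 0.88 for Cidec, each with a permutation p of 1e-05 and an adjusted p of 2.27e-05 (rho 0.90 to 0.95, with the same p). Without the 2 farthest libraries these were 0.97, 0.94, 0.87 and 0.89, and within F1 and within F2 they were 0.86 to 0.99. Lep had an r of 0.55 with Car3 (rho 0.53, permutation p = 0.00266 and 0.00549, adjusted p = 0.00532 and 0.011), and Plin1 one of 0.53 (rho 0.50, permutation p = 0.00473 and 0.00887, adjusted p = 0.00893 and 0.0159). Without the 2 farthest libraries these were 0.53 and 0.57.

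Adipoq had an r of 0.01 with Car3 in the testis (rho 0.28, permutation p = 0.967 and 0.158, adjusted p = 0.967 and 0.185), and it was -0.05 without the 2 farthest libraries. Within the 18 F2 libraries Adipoq had an r of 0.80 with Car3, 0.78 with Fabp4, 0.76 with Cfd, 0.74 with Lpl and 0.70 with Cidec, and within the 9 F1 libraries its r with them was -0.42 to 0.17. Over all libraries its closest member was Retn, with an r of 0.75 (rho 0.72, permutation p = 3e-05 and 6e-05, adjusted p = 6.37e-05 and 0.000127), which was 0.51 without the 2 farthest libraries. The r with Retn was 0.79 within F1 and 0.43 within F2. Among testis genes with a mean of at least 1 CPM, 22.1% had an r over 0.7 with Adipoq, so this value is not particular to Retn. The 10 genes thus did not vary as one: over all testis libraries Adipoq and Retn had an r of 0.01 and 0.34 with Car3, and in ovary Plin1 and Lpl had an r of 0.30 and 0.28 with Adipoq.

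Testis Adipoq was at 7.11 to 35.0 CPM in F1 and at 5.11 to 8.15 CPM in F2, with at least 197 counts in every library. The 8 genes most like it among 16434 testis genes were Pet100 (r 0.97), 1700012D01Rik, Scand1, Tbca, Atp5k, 4930404N11Rik, 1700020L24Rik and Smim6 (r 0.96 each). None is on the lists of fat cell genes, and all 8 had their highest level in F1 dose 2 C or F1 dose 1 B, the libraries with the highest sums of testis markers. The r with Adipoq exceeded 0.7 for 3640 of the 16434 genes, which is 22.1%, against 3 genes for Car3.

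The 3 libraries of F1 testis control held 8.60, 5.69 and 1.77 CPM of Car3, those of dose 1 held 0.726, 1.23 and 0.469 CPM and those of dose 2 held 1.76, 22.2 and 10.8 CPM. Fabp4 was at 4.84, 3.40 and 1.44 CPM in the controls, at 0.726, 1.40 and 0.842 CPM in dose 1 and at 2.202, 9.08 and 11.1 CPM in dose 2. Cfd was at 2.78, 3.73 and 1.54 CPM in the controls, at 0.376, 1.50 and 0.399 CPM in dose 1 and at 2.07, 5.91 and 23.9 CPM in dose 2. Dose 1 was the low group for all 3 genes, and in dose 2 libraries B and C exceeded every control while A did not. In A, B and C the testis markers summed to 6206, 8664.5 and 13100 CPM in the controls and 10755, 17315 and 13063 CPM in dose 1. In dose 2 they summed to 12544, 5278.7 and 18239 CPM, and the part of these sums in the result was not tested.

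Dose 1 against control gave a log2 fold change of -2.82 ± 0.89 for Car3, -1.75 ± 0.62 for Fabp4, -1.94 ± 0.89 for Cfd and -1.37 ± 0.53 for Lpl. Fabp4, Cfd, Plin1, Car3 and Lpl were lower in all 3 dose 1 libraries and Adipoq was higher in all 3, so 6 of 9 members separated the groups against 12.2% of genes. Adipoq was at 7.11, 9.88 and 12.8 CPM in the controls and at 14.1, 32.5 and 14.9 CPM in dose 1, a log2 fold change of 1.03 ± 0.50. An unadjusted p under 0.05 was reached by 4 of 9 members, all lower, against 3.18% of genes, and edgeR called 0 of 9, beside 0.021% of genes, and DESeq2 called 0 (0.142% of genes). Without dose 1 B the value was 0.54 for Adipoq and -3.21 for Car3.

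Dose 2 against control had 9 of 9 members above 0, with a median log2 fold change of 1.03 beside 0.01 over all genes. Retn, at 1.20, 1.35 and 1.64 CPM in the controls and 2.38, 1.98 and 4.40 CPM in dose 2, alone separated the groups, 1 of 9 against 4.07% of genes. Its log2 fold change was 1.03 ± 0.37, with an edgeR adjusted p of 0.982. Retn and Cfd (1.94 ± 0.82) had an unadjusted p under 0.05, 2 of 9 against 1.93% of genes, and edgeR called 0 of 9, beside 0.00526% of genes, and DESeq2 called 0 (0.0263% of genes). Without dose 2 C, the library with the high macrophage sum, Cfd was at 0.57, Retn at 0.64 and Adipoq at 0.25, and without dose 2 B Car3 was at 0.18 and Lpl at -0.24.

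Dose 2 minus dose 1 in testis gave a log2 fold change of 3.91 ± 0.92 for Car3, 3.88 ± 0.92 for Cfd, 2.93 ± 0.63 for Fabp4, 2.70 ± 0.79 for Cidec and 1.83 ± 0.53 for Lpl. Fabp4, Cfd, Plin1, Car3 and Lpl were higher in all 3 dose 2 libraries, 5 of 9 against 7.87% of genes, and 6 of 9 had an unadjusted p under 0.05, against 3.31%. By edgeR 0 of 9 passed, beside 0.0263% of genes, with an adjusted p of 1.0 for each. DESeq2 called Fabp4 (2.93 ± 0.58, adjusted p = 0.000847) and Car3 (3.85 ± 0.93, adjusted p = 0.0326), beside 0.121% of genes. Adipoq differed by -0.08 ± 0.50 in the same contrast, and by -0.78 without dose 2 C, 0.28 without dose 2 B and 0.40 without dose 1 B. Leaving out dose 2 B gave 3.01 for Car3 and 2.75 for Fabp4, and leaving out dose 2 C gave 3.995 and 2.56. Cfd was at 2.52 without dose 2 C, and Lpl at 1.1295 without dose 2 B.

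In F2 testis, levels differed widely within groups, and no member separated any pair of groups compared. Car3 was at 6.75, 4.03 and 0.389 CPM in the control cross, at 0.496, 7.47 and 2.89 CPM in maternal dose 1 and at 4.56, 0.669 and 20.4 CPM in maternal dose 2. In paternal dose 1 it was at 0.730, 8.11 and 10.95 CPM, in paternal dose 2 at 12.7, 2.4002 and 7.50 CPM, and in biparental dose 2 at 1.36, 6.94 and 0.839 CPM. The lowest library of a group was at 0.389 to 2.4002 CPM and the highest at 6.75 to 20.4 CPM, and within maternal dose 2 the highest library exceeded the lowest 30.5-fold.

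Library maternal dose 2 C was the highest of its F2 testis group for 9 of 9 members, as were paternal dose 1 C and biparental dose 2 B in theirs. Over both tissues, at least 7 of the 9 members with counts peaked in a single library in 11 of 18 groups, 8 of the 9 testis groups and 3 of the 9 ovary groups. The epididymis sum peaked in F2 testis maternal dose 2 A, where Car3 was at 4.56 CPM, and was at most 10.9 CPM in the other testis libraries. The part of epididymis RNA in these results was not tested.

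Against the F2 testis control cross, Car3 was at -0.06 ± 1.126 in maternal dose 1, 1.21 ± 1.09 in maternal dose 2, 0.81 ± 1.10 in paternal dose 1, 0.99 ± 1.10 in paternal dose 2 and -0.31 ± 1.14 in biparental dose 2. These 5 comparisons share the same 3 control libraries. Maternal minus paternal crosses gave -0.87 ± 1.10 at dose 1 and 0.22 ± 1.06 at dose 2. Adipoq, which varied less between libraries, was at -0.08 to 0.16 on the log2 scale in the 7 comparisons.

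Members separated the groups in 0 of these 7 F2 testis comparisons, where the share over all genes was 11.9%, 21.4%, 17.6%, 10.7% and 12.6% against the control cross in the order above and 16.2% and 20.9% between crosses. Likewise 0 of 9 members had an unadjusted p under 0.05 in any of them, against 6.54%, 15.7%, 12.5%, 5.02%, 7.02%, 11.5% and 16% of genes. By edgeR 0 of 9 passed in each, with 0.0103%, 0.372%, 0.201%, 0.00516%, 0.0155%, 0.0413% and 0.119% of genes called. DESeq2 also called 0 members, beside 0.0619%, 1.7%, 1.18%, 0.0413%, 0.165%, 0.779% and 2.43% of genes. The lowest adjusted p of a member was 0.528, for Fabp4 in maternal dose 2.

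Ucp1, which uncouples respiration in brown and beige adipocytes, had 0 to 4 counts in every library of both tissues. It was at or under 3 counts, the level that a count of 0 allows, in 25 of 27 testis and 26 of 27 ovary libraries, so no difference could be seen at this depth. The r of 7 other brown adipocyte genes with Adipoq ranged from -0.57 (Prdm16) to 0.87 (Cox7a1) in testis and from -0.41 (Ppargc1a) to 0.45 (Cox8b) in ovary. By edgeR 0 of 117 tests of these genes passed, and 8, or 6.84% pooled over the 20 comparisons, had an unadjusted p under 0.05. The share of all genes was 1.93% to 16% in single comparisons, and no pooled share was computed. DESeq2 called 0.

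The order of the groups was mostly not resolved by the spread. Ranked by mean, neighbouring groups overlapped in all 8 pairs for all members in testis. In ovary the neighbours were apart in 1 of 8 pairs for Adipoq (F2 maternal dose 2 over F2 control cross), 2 of 8 for Cfd, 1 of 8 for Car3 (F2 control cross over F1 dose 1) and 0 of 8 for the others. These counts only describe the members: the pairs were ranked by the same values, mix F1 with F2, and have no share over all genes beside them. Mean Car3 in ovary ran from 29.2 ± 23.4 CPM (SD, n = 3) in F2 paternal dose 1, through 23.1 ± 12.6 in paternal dose 2, 22.4 ± 25.3 in maternal dose 1, 11.1 ± 15.03 in F1 dose 2, 10.6 ± 7.07 in biparental dose 2, 8.09 ± 1.17 in maternal dose 2, 4.42 ± 3.46 in F1 control and 4.10 ± 1.90 in the F2 control cross, to 1.14 ± 0.99 in F1 dose 1. For testis the mean of Car3 was highest in F1 dose 2, 11.6 ± 10.3 CPM, and lowest in F1 dose 1, 0.807 ± 0.385 CPM.

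A list of 23 other white adipocyte genes gave 0 of 444 tests called by edgeR, with 58 at an unadjusted p under 0.05, which is 13.1%, beside 23.2% of the 177 tests of the 10 members. Over all genes the share was 1.93% to 16% in single comparisons. The 13.1% is pooled over comparisons, and no pooled share of all genes was computed to set beside it. The tests of the members that reached this p were mostly in F2 ovary and F1 testis. DESeq2 called 2 of the 444, the triglyceride synthesis gene Dgat1 (0.28 ± 0.07, F2 testis maternal minus paternal dose 2) and the perilipin Plin4 (0.71 ± 0.16, F1 ovary dose 2 minus dose 1). Many of these genes are active in the gonad itself: the list summed to 1912 to 2445 CPM in testis and to 1073 to 1844 CPM in ovary, and Aqp7, a glycerol channel, was at 125 to 433 CPM in testis. Summed levels of 9 endothelial genes were level, at 40.8 to 51.5 CPM in testis and 412 to 537 CPM in ovary. The mesothelium list, which marks the lining of the abdominal cavity, summed to 23.2 to 121 CPM in ovary and 21.1 to 58.8 CPM in testis.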

How the data were processed

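RNA libraries of mouse testis and ovary were made with a stranded mRNA kit and read at 100 nt, per the labels. The authors deposited raw counts per gene, not normalized, in a table per tissue. Tools listed, without roles, in the submitters' processing notes are Bowtie2 2.4.5, DESeq2 1.32.0, FastQC 1.19, SAMtools 1.13, TopHat2 2.1.1, bcl2fastq 2.20 and featureCounts 2.0.3, and the build is mm39. Annotation and strand setting, not given in the sources used here, decide how reads of overlapping genes were shared. Total counts per library were 31.8 M to 122.4 M in F1 testis, 31.6 M to 48.2 M in F2 testis, 36.6 M to 57.4 M in F1 ovary and 37.9 M to 84.7 M in F2 ovary.

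Counts were tested with edgeR 4.0.16 in R 4.3.3 (glmQLFit and glmQLFTest, TMM scaling, filterByExpr at a minimum count of 10), in a separate fit per tissue and generation (9 or 18 libraries). P-values were adjusted by the Benjamini-Hochberg method over all genes, at 0.05. CPM were TMM-scaled over the 27 libraries of a tissue, and a prior count of 2 was added before taking log2. Groups of 3 limit an exact permutation p to 0.1 or more, so none was computed between groups. Correlations used 100000 permutations. The fit was run on simulated counts, drawn for each gene independently from the fit's own estimates of spread. Its recovery of changes is not given here, so it does not show how large a change the tests could detect. Separation means that all 3 libraries of a group lay above, or all below, the other 3.

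All 10 genes are named in each comparison by the rule, with genes of other lists where they serve as cell type checks or were called by DESeq2, and the 8 genes most like Adipoq in each tissue by Pearson's r, among genes with a mean of at least 1 CPM. The 10 genes and the lists were chosen with earlier results of these data known. Adrb3, Pck1, Trarg1, Pparg, Cebpa, Plin4, Cd36, Prdm16, Cox7a1, Ppargc1a and Cox8b were named after their values were seen. The labels do not state that letters pair samples, and letters were not taken as pairs. Deviations from group means had a mean r of -0.08 to 0.03 between libraries of one letter. In F2 testis that mean r was 0.033, against -0.0164 for libraries of different letters, and whether letters share variation there was not tested. Alternatives were DESeq2 1.42.0, size factors by RLE, no filter, all 27 libraries or 6 libraries in a fit, the replicate block, plain CPM and leaving out each library. Promoter windows came from RefSeq, build GRCm38.p6, and differ in build from the counts.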

Additional observations from a re-analysis of the deposited data

Results flagged for a closer look

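Plin1 in F1 dose 1 differed from control in opposite directions in the 2 tissues. The mean of dose 1 minus control was -1.25 CPM in testis, where all 3 dose 1 libraries were below the 3 controls, and 9.54 CPM in ovary, where all 3 were above. Of all genes, 12.2% separated these groups in testis and 10.5% in ovary, in either direction. The difference between the tissues was not tested, and neither edgeR comparison passed, with an adjusted p of 0.998 in testis and 0.713 in ovary.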

How the results depend on the processing

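Of 240 counts of members past the threshold, recomputed over the 20 comparisons, 238 stayed at 0. The other 2 came from DESeq2, with 2 members (Fabp4 and Car3) in F1 testis dose 2 against dose 1 and 1 (Plin1) in F2 ovary maternal dose 2 against the control cross, and the cause was not tested. Leaving out each library gave counts of 0 to 0, with a lowest adjusted p of 0.0602, for Fabp4 in F2 ovary maternal against paternal dose 1 without maternal dose 1 A. The fit with the replicate block, for a pairing by letter that the labels do not state, also called 0 members in every comparison. Over all genes the block raised the calls in most F2 testis comparisons. They went from 72 to 297 in maternal dose 2 against the control cross and from 23 to 280 between maternal and paternal dose 2. In maternal dose 1 against the control cross they fell from 2 to 0. Of 41 fold changes with an unadjusted p under 0.05, followed over 488 alternative values, 485 kept their direction and side, 0 reversed and 3 passed, all by DESeq2. Over all genes, edgeR called 0 to 72 per comparison, DESeq2 2 to 470, the block 0 to 297, all 27 libraries in a fit 0 to 2, and 6 libraries alone 0 to 47. RLE scaling moved the median log2 fold change by at most 0.01, and 0 of 36 group means moved by over 1 SD in plain CPM.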
